A study of Rattus norvegicus with 12 samples.

Results

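The let-7 family was followed through 10 entries of a small RNA table from rat aorta, out of 641 miRNAs listed. The members were chosen by name: the 5p forms of let-7a, let-7b, let-7c, let-7d, let-7e, let-7f, let-7g, let-7i and miR-98, together with miR-3596a, from a hairpin opposite let-7a-2. Aortas came from female rats of the SHR strain, the inbred spontaneously hypertensive rat, and both groups were of this strain. The treatment was EWH in 6 samples and saline in 6, called control here; the title of the series speaks of peptides from egg white that lowered blood pressure. The labels state neither age, dose nor length of treatment, nor that each sample came from its own animal, so the spread behind the p-values below may be partly technical.

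A miRNA is cut from a hairpin transcript, and 1 arm of the hairpin, the guide strand, is kept by an Argonaute protein and pairs with messenger RNAs mainly through its seed, bases 2 to 8 from the 5′ end. The let-7 guides form a family in mammals because they share a seed while being made from many separate hairpins. They are known to be low in embryonic and stem cells, where the LIN28 proteins block their maturation, and abundant in differentiated adult tissue, where they restrain growth-promoting messengers such as those of the RAS and HMGA2 genes.

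The mature sequences are shown first because they set which entries belong together and which can share reads. All 10 members were found in RefSeq's miRNA table (assembly GRCr8). Capitals mark the seed, rno- is the prefix for rat, which is left out further on, and all sequences run 5′ to 3′.
rno-let-7a-5p: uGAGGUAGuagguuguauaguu
rno-let-7b-5p: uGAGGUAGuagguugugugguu
rno-let-7c-5p: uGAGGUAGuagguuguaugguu
rno-let-7d-5p: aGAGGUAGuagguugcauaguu
rno-let-7e-5p: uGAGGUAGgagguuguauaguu
rno-let-7f-5p: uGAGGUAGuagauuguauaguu
rno-let-7g-5p: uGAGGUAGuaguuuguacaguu
rno-let-7i-5p: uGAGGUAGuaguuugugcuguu
rno-miR-98-5p: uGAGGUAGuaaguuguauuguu
rno-miR-3596a: aACUAUACaaccuacuaccuca

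All of these but the last carried the seed GAGGUAG, and they were the only 9 to do so among the 581 entries of the table with a sequence in RefSeq. All 10 were 22 bases long, so no length term is needed between them. Whether each sequence was captured equally well cannot be seen from these values, so comparisons between members are comparisons of reads. Counted from 1 at the 5′ end, let-7c differed from let-7a only by A19G, let-7e only by U9G and let-7f only by G12A. Let-7b differed by A17G and A19G, let-7d by U1A and U16C, let-7g by G12U and U18C, and miR-98 by G11A and A19U. Let-7i stood farthest off, with G12U, A17G, U18C and A19U. How reads that fit more than 1 of these entries were assigned is not given, so values of members that differ by 1 base are uncertain to that extent.

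By its letters miR-3596a is not a let-7 guide strand: it is the exact reverse complement of let-7a-5p over all 22 bases, its seed is ACUAUAC, and no other entry with a sequence shares that seed. RefSeq places its hairpin on the strand opposite to let-7a-2. Similar entries exist for 3 more members. MiR-3596c (aCUAUACAaccuccuaccuca) is the reverse complement of bases 1 to 21 of let-7e-5p, miR-3596d (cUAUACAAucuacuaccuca) that of bases 1 to 20 of let-7f-5p, and miR-3596b (aACUAUGCaaccuacuaccu) that of bases 3 to 22 of let-7d-5p. The strand setting of the authors' counting is not given, so reads of a 5p form and of its opposite strand cannot be told apart from these values. The main counts over the members are therefore given with and without miR-3596a.

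In RefSeq's order on GRCr8, let-7a-1, let-7d and a hairpin of let-7f-5p named Mirlet7f-1os lie within 10 kb of each other on 1 strand, with the gene named Mirlet7f-1 on the other strand, and let-7c-2 lies beside let-7b. Let-7f-2 and miR-98 lie together inside Huwe1, which encodes a ubiquitin ligase. Let-7c-1 neighbours miR-99a, let-7a-2 neighbours miR-100, and let-7e neighbours miR-99b and miR-125a within the span of Spaca6. Let-7g and let-7i had no other miRNA hairpin within 10 kb. Let-7a, let-7c and let-7f each come from 2 hairpins with the same mature form, so their values add up both sites.

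The values are rpm, that is reads per 1000000 reads of a library total. The totals were 23887799 to 24772944 reads, and listed miRNAs took 76.4% to 80.6% of them. A listed 0 would allow up to 0.121 to 0.126 rpm, the worth of 3 reads, counting error only, and each member lay far above that in each library. As a check of the tissue, the smooth muscle markers, led by miR-143-3p, summed to 331972 to 428680 rpm in EWH and 347016 to 426866 rpm in control. The endothelial miR-126a arms summed to 4264 to 6913 rpm in EWH and 3290 to 12305 rpm in control, with control 1 at the top and the next control at 5472 rpm. The erythrocyte, leukocyte, epithelial, hepatocyte, adipocyte, striated muscle and neuronal marker lists each held at most 0.217% of a library's listed reads. EWH 3 and EWH 4 stood apart on the first principal component of all tested miRNAs, which held 46.3% of the variance, at 11.97 and 16.2, where the other libraries lay between -7.94 and 4.94.

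The let-7 pool was a major part of the aortic miRNA, and its sum was higher on average in EWH than in control, with overlap. Summed members reached 108361 to 152037 rpm in EWH, averaging 132945 ± 18818 rpm, and 95882 to 127259 rpm in control, averaging 109710 ± 10517 rpm (SD, n = 6 each). The ratio of the means was 1.21. Without miR-3596a the sum averaged 128483 rpm in EWH and 106527 rpm in control, also a ratio of 1.21. EWH 3, 4, 5 and 6 read 152037, 138948, 144366 and 143773 rpm and lay above the highest control, while EWH 1 and 2, at 110185 and 108361 rpm, lay inside the control range. As a share of listed reads the pool held 16.8% ± 2.45 in EWH and 14.0% ± 1.26 in control (SD, n = 6 each). Since the sum is a score over chosen members it was given no test.

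Shares in one library are tied to each other, and miR-143-3p alone held 48.3% ± 4.22 of the listed reads in EWH and 50.5% ± 3.43 in control (SD, n = 6 each). Among the listed reads other than miR-143-3p the let-7 pool held 32.4% ± 2.94 in EWH and 28.4% ± 2.33 in control (SD, n = 6 each), a ratio of 1.14. On that base 3 EWH libraries lay above the highest control, and EWH 4, at 30.9%, no longer did. Which EWH libraries stood high thus depended on the scaling. Under median-of-ratios scaling EWH 2, at 140355, lay above the highest control, at 126859, and EWH 4, at 116336, below it. Under TMM scaling EWH 2 was at 134393, the highest control at 127901 and EWH 4 at 116550. In bulk tissue, a change in the number of cells of a type and a change in the amount of a miRNA per cell cannot be told apart.

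**Figure D1:**
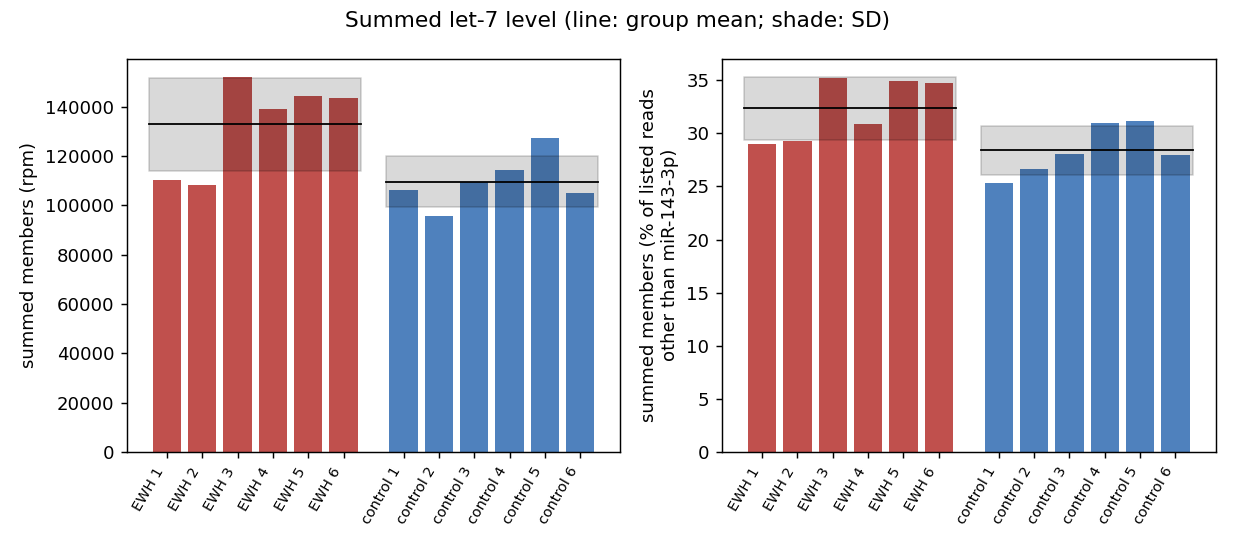
Summed level of the 10 let-7 members in each library, EWH left of control, as rpm (left) and as percent of listed reads other than miR-143-3p (right); lines are group means and shades SD (n = 6 each). EWH 3 to 6 lie at 138948 rpm or more, above the highest control at 127259 rpm, and EWH 1 and 2 do not.

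Summed neuron and glia markers also stood higher in EWH 3 to 6 than in EWH 1 and 2. That list (7 of 7 in the table, 6 with a higher mean in EWH) summed to 995 to 1693 rpm in EWH 3 to 6, to 643 and 715 rpm in EWH 2 and 1, and to 564 to 1354 rpm in control. The exception was its most abundant miRNA, miR-128-3p, at 683 ± 126 rpm in EWH and 770 ± 264 rpm in control (SD, n = 6 each). MiR-219a-5p, also on that list, had at most 3 reads in each library. The skeletal and cardiac muscle list (4 of 5 in the table, 3 with a higher mean in EWH) summed to 707 to 1431 rpm in EWH and 418 to 1359 rpm in control. Its miR-208a-3p had at most 3 reads in each library. The muscle sum did not follow the same libraries, as EWH 4 was the lowest EWH library and EWH 1, at 1232 rpm, the second highest of them. The smooth muscle sum, the largest of the marker lists, went the other way in the same libraries. It was 426666 and 428680 rpm in EWH 1 and 2 and 331972 to 377305 rpm in EWH 3 to 6. The part of any of these lists in the let-7 values was not tested. Without EWH 3 and 4 the EWH mean of the pool was 126671 rpm, still above the control mean.

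Most members were higher on average in EWH by a fraction of a log2 unit, but none passed limma. The mean log2 value was higher in EWH for 9 of 10 members, let-7g being the other, where 39.9% of the 303 tested miRNAs did. Their median log2 difference was 0.29, against -0.06 over all tested miRNAs. Without miR-3596a, 8 of 9 were higher with a median of 0.26. In limma on log2(rpm + 1), with Benjamini-Hochberg adjustment over all tested miRNAs at 0.05, 0 of 10 members passed (background 0%), with adjusted p from 0.128 to 0.645. Before adjustment 5 members lay under 0.05 in limma (rno-let-7a-5p, rno-let-7b-5p, rno-let-7c-5p, rno-let-7i-5p and rno-miR-3596a), all higher in EWH, where 15.2% of the tested miRNAs were called in that direction. Run on recovered reads, edgeR's quasi-likelihood test called let-7b, let-7i and miR-3596a higher (3 of 10, background 11.2%), with 8 members under an unadjusted 0.05, as were 26.1% of the tested miRNAs in either direction. DESeq2 called these and let-7e (4 of 10, background 15.2%). Without miR-3596a the counts were 4 of 9 in limma before adjustment, 2 of 9 in edgeR and 3 of 9 in DESeq2, beside the same backgrounds. For 0 of 10 members did all EWH libraries lie above all controls, as was so for 0.330% of the tested miRNAs. The members share libraries, some share a primary transcript and several differ by 1 or a few bases, so these counts are not counts of independent events. The count of edgeR calls changed with the library left out. It was 0 without control 1, 4, 5 or 6 or without EWH 3 or EWH 4. It was 1 without EWH 5 or 6 or control 2, 2 without control 3, 3 without EWH 2 and 5 without EWH 1. In the fits with 0 members called, 0% of all tested miRNAs were called, and in the other fits 9.0% to 14.9% were. The smallest adjusted p of a member in the fits with 0 called ran from 0.0632 to 0.0764 (edgeR, Benjamini-Hochberg). Without EWH 3 and 4 together limma and edgeR called 0 members, and the median limma difference was 0.21. In limma 2 members then lay under an unadjusted 0.05, against 13.0% of the tested miRNAs, and in edgeR 3 did, against 15.8%.

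**Figure D2:**
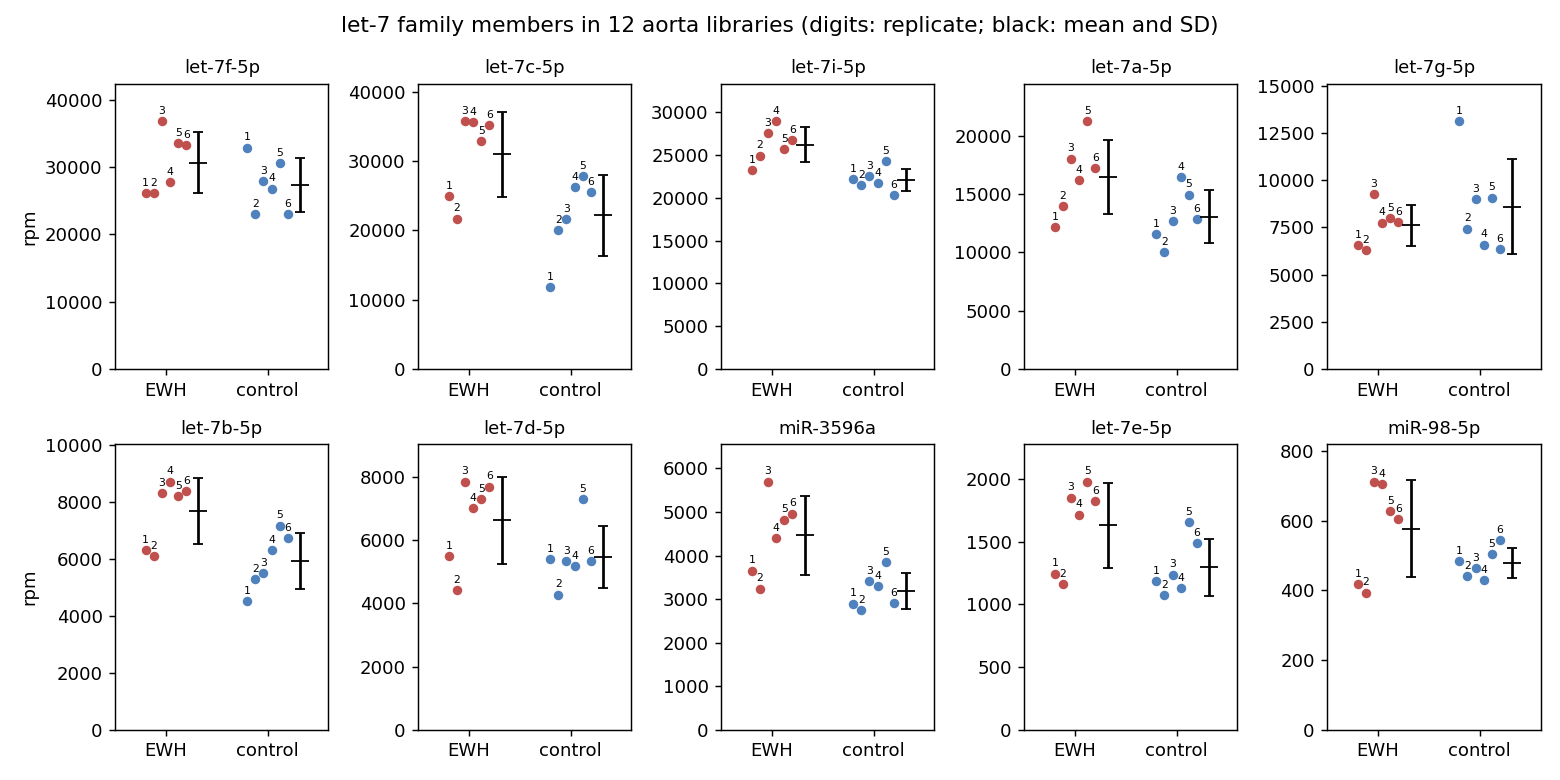
Level of each member in rpm, EWH left of control, in 12 libraries (points, with the replicate number), with mean and SD in black; each panel's axis starts at 0. EWH 1 and 2 lie low among the EWH libraries in most panels, and control 1 stands highest in let-7g-5p at 13149 rpm and lowest in let-7c-5p at 11854 rpm.

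Let-7i-5p, the member with the most distant sequence and a hairpin of its own, had the smallest limma p of the family. It lay between 23282 and 29016 rpm in EWH, with a median of 26243 rpm, and between 20330 and 24336 rpm in control, with a median of 21960 rpm. All EWH libraries but EWH 1 lay above the highest control, control 5. Its mean was 26224 ± 2028 rpm in EWH and 22107 ± 1332 rpm in control (SD, n = 6 each), a log2 difference of 0.24 (SE 0.06, 95% interval 0.10 to 0.39). Limma's adjusted p was 0.128 (Benjamini-Hochberg), rank 4 of 303 by p, and edgeR's was 0.0308. It was also the steadiest member, as its spread within a group was the smallest relative to its mean. The log2 difference was 0.044 under quantile normalization (limma adjusted p = 0.655) and 0.16 per listed read other than miR-143-3p (limma adjusted p = 0.0927). Limma called let-7i and miR-3596a when EWH 2 was left out (smallest Benjamini-Hochberg adjusted p = 0.0355). In that fit 7.97% of the tested miRNAs were called in either direction.

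MiR-3596a, the reverse complement of let-7a, lay between 3238 and 5697 rpm in EWH (median 4612 rpm) and between 2744 and 3851 rpm in control (median 3102 rpm). EWH 3 to 6 lay above the highest control, and EWH 1 and 2 within the control range. Its mean was 4462 ± 902 rpm in EWH and 3183 ± 416 rpm in control (SD, n = 6 each), with a log2 difference of 0.47 (SE 0.14, 95% interval 0.17 to 0.77). Limma gave adjusted p = 0.128 and edgeR 0.0308 (Benjamini-Hochberg).

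Let-7a-5p itself, whose letters are the same in vertebrates and many invertebrates, lay between 12193 and 21297 rpm in EWH (median 16724 rpm) and between 10011 and 16438 rpm in control (median 12756 rpm). The groups overlapped, with EWH 3, 5 and 6 above the highest control, control 4. The log2 difference was 0.33 (SE 0.15, 95% interval 0.012 to 0.65; limma adjusted p = 0.196, edgeR 0.133, both Benjamini-Hochberg). This sense and antisense pair did not keep a fixed ratio. MiR-3596a read 22.7% to 31.6% of let-7a-5p in EWH and 20.1% to 27.4% in control, and the SD of their log2 ratio over 12 libraries was 0.19. That SD was 0.10 for miR-3596c and let-7e-5p, and 0.27 for miR-3596d and let-7f-5p. It was 0.68 for miR-3596b, which had few reads, and let-7d-5p.

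The antisense ratio differed by orders of magnitude between pairs, far more than between libraries within a pair. MiR-3596a stood at 27.2% ± 3.64 of let-7a-5p in EWH and 24.6% ± 2.79 in control (SD, n = 6 each). MiR-3596c stood at 10.2% ± 0.478 of let-7e-5p in EWH and 9.66% ± 0.83 in control (SD, n = 6 each). MiR-3596d stood at 2.51% ± 0.2 of let-7f-5p in EWH and 2.99% ± 0.652 in control (SD, n = 6 each). MiR-3596b, whose entry alone lacks the complement of the first bases of its 5p form, stood at 0.00665% of let-7d-5p in EWH and 0.00512% in control, which is 0.122 to 0.754 rpm, from the worth of 3 reads upward. Like the let-7e-5p it mirrors, miR-3596c averaged 166 ± 33.7 rpm in EWH and 124 ± 16.6 rpm in control (SD, n = 6 each), with a log2 difference of 0.40 (limma adjusted p = 0.163, edgeR 0.0308, Benjamini-Hochberg). MiR-3596d averaged 764 ± 96.5 rpm in EWH and 812 ± 185 rpm in control (log2 difference -0.07, limma adjusted p = 0.808).

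Let-7b-5p and let-7c-5p, which share a hairpin cluster and differ from each other by 1 base (A17G, from let-7c to let-7b), had higher means in EWH. Let-7b lay between 6106 and 8721 rpm in EWH (median 8267 rpm) and between 4527 and 7171 rpm in control (median 5910 rpm). EWH 3 to 6 lay above all controls. Its log2 difference was 0.38 (SE 0.13, 95% interval 0.09 to 0.66), with adjusted p = 0.149 by limma, 0.0338 by edgeR and 0.0105 by DESeq2 (Benjamini-Hochberg). Let-7c, the second most abundant member by the mean over all libraries and the first in EWH, lay between 21696 and 35808 rpm in EWH (median 34043 rpm) and between 11854 and 27845 rpm in control (median 23557 rpm). Again EWH 3 to 6 lay above all controls, and control 1 lay below the other controls, whose mean was 24260 ± 3297 rpm (SD, n = 5). The log2 difference of 0.51 (SE 0.21, 95% interval 0.06 to 0.96) was the largest in the family, missed both tests (adjusted p = 0.168 by limma and 0.0875 by edgeR, Benjamini-Hochberg), and was 0.34 without control 1.

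Let-7f-5p, the most abundant member over all libraries and in control but not in EWH, averaged 30622 ± 4540 rpm in EWH and 27359 ± 3976 rpm in control (SD, n = 6 each), a log2 difference of 0.16 (95% interval -0.09 to 0.42; limma adjusted p = 0.456, Benjamini-Hochberg). It ranged from 26108 to 36863 rpm in EWH and from 23007 to 32894 rpm in control, with control 1 the highest control. Its limma log2 difference was 0.00034 under quantile normalization, 0.080 per listed read other than miR-143-3p and 0.11 without EWH 3. In edgeR it was 0.26 without EWH 4 and 0.25 without control 1. Let-7d-5p ranged from 4414 to 7864 rpm in EWH and from 4283 to 7299 rpm in control (log2 difference 0.26, limma adjusted p = 0.343, and 0.17 without EWH 3 and 4). Let-7e-5p ranged from 1165 to 1981 rpm in EWH and from 1077 to 1656 rpm in control (log2 difference 0.32, limma adjusted p = 0.251, DESeq2 0.0382). MiR-98-5p, the least abundant, ranged from 394 to 712 rpm in EWH and from 429 to 545 rpm in control (log2 difference 0.24, limma adjusted p = 0.400). In miR-98 the EWH libraries fell on both sides of the controls, EWH 3 to 6 above all of them and EWH 1 and 2 below all of them. The miR-98 log2 difference was 0.069 without EWH 3 and 4, 0.15 per listed read other than miR-143-3p, and 0.36 in edgeR without EWH 1 (adjusted p = 0.0273).

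Let-7g-5p was the exception in direction, with a lower mean in EWH, and control 1 weighed heavily in it. It lay between 6290 and 9277 rpm in EWH (median 7774 rpm) and between 6360 and 13149 rpm in control (median 8218 rpm). Its mean was 7615 ± 1077 rpm in EWH and 8602 ± 2510 rpm in control (SD, n = 6 each), with a log2 difference of -0.14 (SE 0.17, 95% interval -0.51 to 0.22; limma adjusted p = 0.645, Benjamini-Hochberg). Without control 1 the control mean was 7692 ± 1292 rpm (SD, n = 5), and the limma log2 difference was -0.010. It was -0.089 without EWH 2, -0.22 without control 6 or per listed read other than miR-143-3p, and -0.23 without EWH 3 and 4 in limma, and -0.094 in edgeR with the replicate number as a block. The same library also held the highest endothelial sum, given above, and 1324 rpm of the adipocyte markers, against at most 490 rpm in the other controls. Among the controls it also had the lowest smooth muscle sum (347016 rpm) and the highest leukocyte sum (228 rpm). Its erythrocyte (76.3 rpm) and hepatocyte (120 rpm) sums were the lowest of the controls. The part of these marker lists in its let-7g value was not tested.

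**Figure D3:**
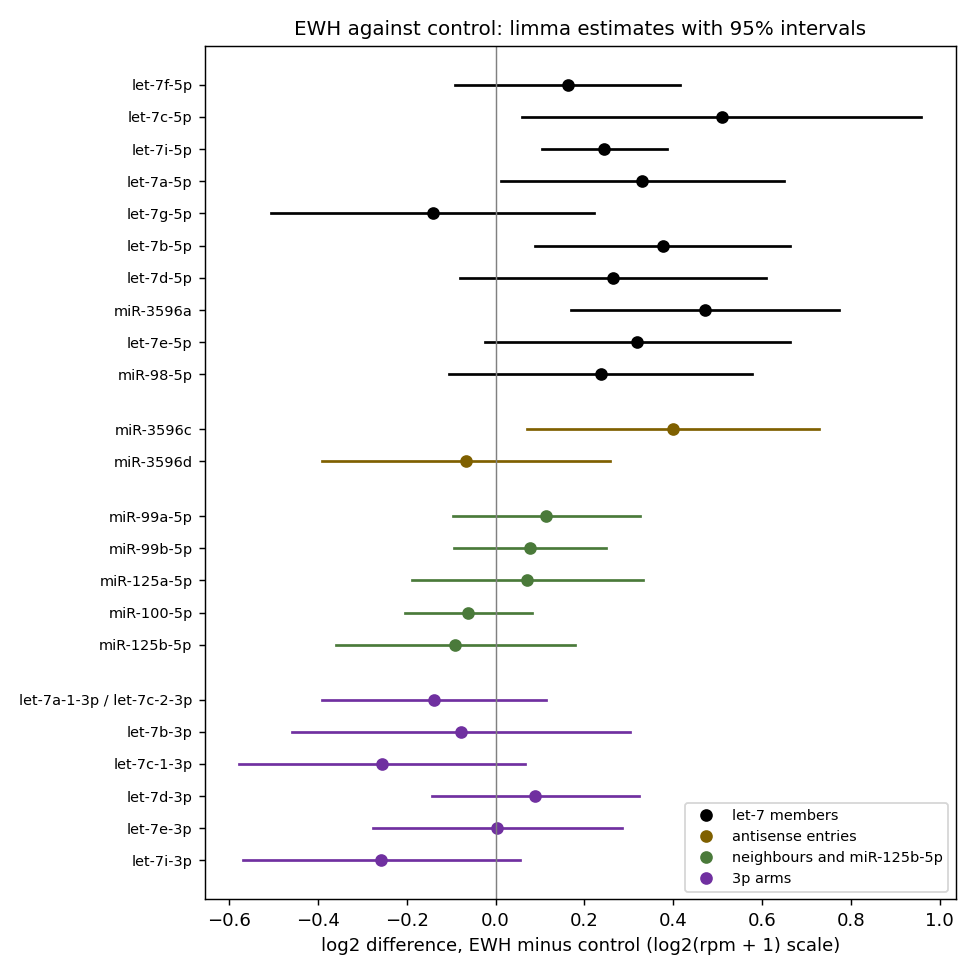
Log2 difference, EWH minus control, on the log2(rpm + 1) scale with its 95% interval from limma (n = 6 each) for the members, 2 antisense entries, 4 miRNAs from neighbouring hairpins with miR-125b-5p, and 6 entries of 3p arms. The intervals of let-7a, let-7b, let-7c, let-7i, miR-3596a and miR-3596c lie above 0 before adjustment, and those of the neighbours, miR-125b-5p and the 3p arms all include 0.

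The miRNAs made from hairpins next to let-7 sites lay close to 0 in the comparison. Of 4 within 10 kb (miR-99a, miR-100, miR-99b and miR-125a) 0 passed limma (background 0%) or edgeR (background 13.2%). Before adjustment 0 lay under 0.05 in either, where 23.1% of the tested miRNAs did in limma and 26.1% in edgeR. In EWH 3 were higher and 1 lower (39.9% of the tested miRNAs were higher), with a median log2 difference of 0.07. MiR-99a-5p, beside let-7c-1, averaged 38279 ± 6010 rpm in EWH and 35107 ± 2696 rpm in control (SD, n = 6 each), a log2 difference of 0.11 (95% interval -0.10 to 0.32). MiR-100-5p, beside let-7a-2, averaged 5139 ± 475 rpm in EWH and 5344 ± 109 rpm in control (-0.06, 95% interval -0.20 to 0.08), and 5 EWH libraries lay below the lowest control. MiR-99b-5p and miR-125a-5p, beside let-7e, had log2 differences of 0.08 (95% interval -0.09 to 0.25) and 0.07 (-0.19 to 0.33). MiR-125b-5p, known from the same ancestral clusters but not within 10 kb of a let-7 hairpin in RefSeq, stood at -0.09 (95% interval -0.36 to 0.18). The difference between a let-7 member and its neighbour was not tested.

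By mean over the 12 libraries the order of levels was let-7f (28990 rpm), let-7c (26601), let-7i (24165), let-7a (14790), let-7g (8108), let-7b (6802), let-7d (6058), miR-3596a (3822), let-7e (1464) and miR-98 (527 rpm). The steps that held in 12 of 12 libraries were let-7i over let-7a, let-7d over miR-3596a, miR-3596a over let-7e and let-7e over miR-98. Neighbours that changed places were let-7f over let-7c (9 of 12 libraries), let-7c over let-7i (8 of 12), let-7g over let-7b (8 of 12), let-7b over let-7d (10 of 12) and let-7a over let-7g (11 of 12, all but control 1). The mean log2 ratio was 0.17 with an SD of 0.45 for let-7f over let-7c and 0.09 with an SD of 0.37 for let-7c over let-7i, so neither step exceeded the spread between libraries. In EWH alone let-7b and let-7g had a mean log2 ratio of 0.0092 with an SD of 0.12, and let-7c and let-7f one of 0.0049 with an SD of 0.21 (n = 6 each).

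In the make-up of the pool 1 library, control 1, stood apart. Let-7c held 23.2% ± 1.9 of the pool in EWH and 20.2% ± 4.69 in control (SD, n = 6 each). Let-7f held 23.1% ± 1.56 in EWH and 25.0% ± 3.16 in control, and let-7i held 19.9% ± 2.07 in EWH and 20.2% ± 1.33 in control (SD, n = 6 each). In control 1 let-7c held 11.2%, let-7f 31.0% and let-7g 12.4%. Let-7g held 5.74% ± 0.266 in EWH and 7.88% ± 2.4 in control, and miR-3596a held 3.33% ± 0.258 in EWH and 2.90% ± 0.148 in control (SD, n = 6 each), with 5 EWH libraries above the highest control. These shares were not tested.

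**Figure D4:**
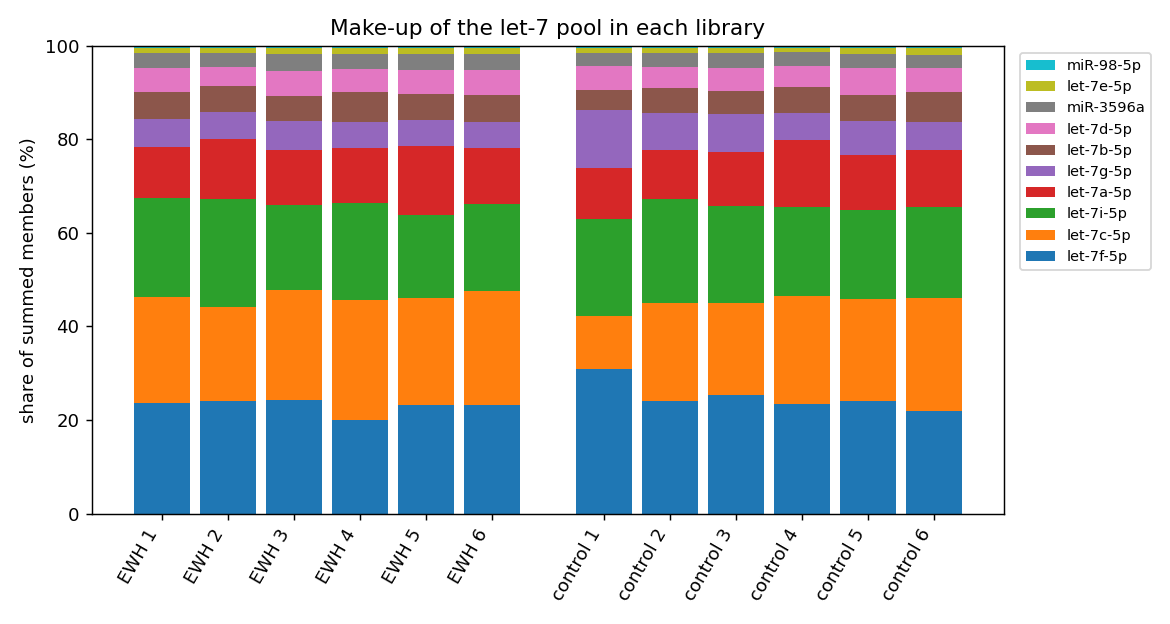
Share of each member in the summed members of a library (stacked bars, percent), EWH libraries left of control libraries, members stacked in order of mean level with let-7f at the bottom. Control 1 differs from the other bars, with let-7c at 11.2% and let-7g at 12.4%.

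How closely pairs of members moved together was described by the SD of their log2 ratio over the 12 libraries, which is small when the ratio is steady. Over the 45 pairs it ran from 0.12 (let-7d and let-7e) to 0.65 (let-7c and let-7g), with a median of 0.23, and without control 1 the highest was 0.31. Let-7b and let-7c had 0.19, and 0.08 without control 1. The pair of the X-linked cluster, let-7f and miR-98, had 0.24, and let-7d had 0.21 with let-7a and 0.20 with let-7f, its cluster mates. Against the sum of the other members, which leaves the member itself out, let-7d and miR-3596a were steadiest, both with an SD of 0.14, followed by let-7i with 0.15. Of 173 tested miRNAs outside the family averaging at least 10 rpm, the closest to the sum of all members were miR-374-3p (0.15), miR-3596c (0.16), miR-125a-3p (0.16), miR-30c-2-3p (0.18) and miR-26a-5p (0.19), against a median of 0.41. MiR-26a-5p averaged 107494 ± 8599 rpm in EWH and 102896 ± 8690 rpm in control (SD, n = 6 each), a log2 difference of 0.06. All values share 1 scale within a library, and a miRNA that varies little has a small value here too.

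The ratio of the guide arm to the other arm had a higher mean in EWH for all 6 let-7 hairpins that could be tested. Its numerator is the 5p level already compared above, so this direction in part repeats that result and is not separate evidence. The 3p arms entered too, with log2 differences of -0.26 for both let-7i-3p and let-7c-1-3p, beside 0.24 and 0.51 for the 5p forms. Of the tested 3p entries 4 were lower and 2 higher in EWH. In limma over 74 hairpins, of which 42 were higher in EWH, 0 of these 6 passed at an adjusted p under 0.05 (background 0%), and 3 lay under an unadjusted 0.05, all higher in EWH (background 12.2%). For let-7i, (5p + 1)/(3p + 1) lay between 4947 and 6679 in EWH and between 3301 and 5547 in control. All EWH libraries but EWH 1 lay above the controls, and the log2 difference of the ratio was 0.50 (SE 0.13, 95% interval 0.22 to 0.78; limma adjusted p = 0.0831, Benjamini-Hochberg). For let-7c it lay between 7093 and 10702 in EWH and between 2460 and 7007 in control, so the groups did not overlap, by a narrow margin, as was so in this direction for 1.35% of the hairpins. The log2 difference was 0.76 (SE 0.21, 95% interval 0.32 to 1.21; limma adjusted p = 0.0831, Benjamini-Hochberg). That ratio sets a 5p form made by 2 hairpins against the 3p arm of let-7c-1 alone, since the arm of let-7c-2 is listed jointly with that of let-7a-1. For let-7e it averaged 107 ± 20.9 in EWH and 85.5 ± 12.6 in control (SD, n = 6 each; limma adjusted p = 0.217). Both let-7c and let-7i were called when control 1 was left out (smallest adjusted p = 0.0383, 4 of 73 hairpins called in all). They were also called without control 5 (smallest adjusted p = 0.0236, 2 of 74 hairpins called in all). Without EWH 3 the smallest adjusted p of the family was 0.226 (all limma, Benjamini-Hochberg). The 3p arms of let-7c and let-7i were scarce, with let-7c-1-3p at a mean of 2.61 rpm in EWH and 3.25 rpm in control, and let-7i-3p at 3.41 and 4.31 rpm. The added 1 is thus a large part of these denominators. With 5 added in place of 1, let-7i was called (limma adjusted p = 0.0343, Benjamini-Hochberg), 1 of 3 called among 74 hairpins.

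Among the tested 3p arms 0 passed limma (background 0%) or edgeR (background 13.2%). Before adjustment 0 lay under 0.05 in either, where 23.1% of all tested miRNAs did in limma and 26.1% in edgeR. Of 11 entries 6 were abundant enough to be tested, with 4 lower and 2 higher in EWH (background 39.9% higher) and a median log2 difference of -0.11. Let-7i-3p averaged 3.41 ± 0.523 rpm in EWH and 4.31 ± 0.944 rpm in control (SD, n = 6 each; log2 difference -0.26, limma adjusted p = 0.315, Benjamini-Hochberg).

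**Figure D5:**
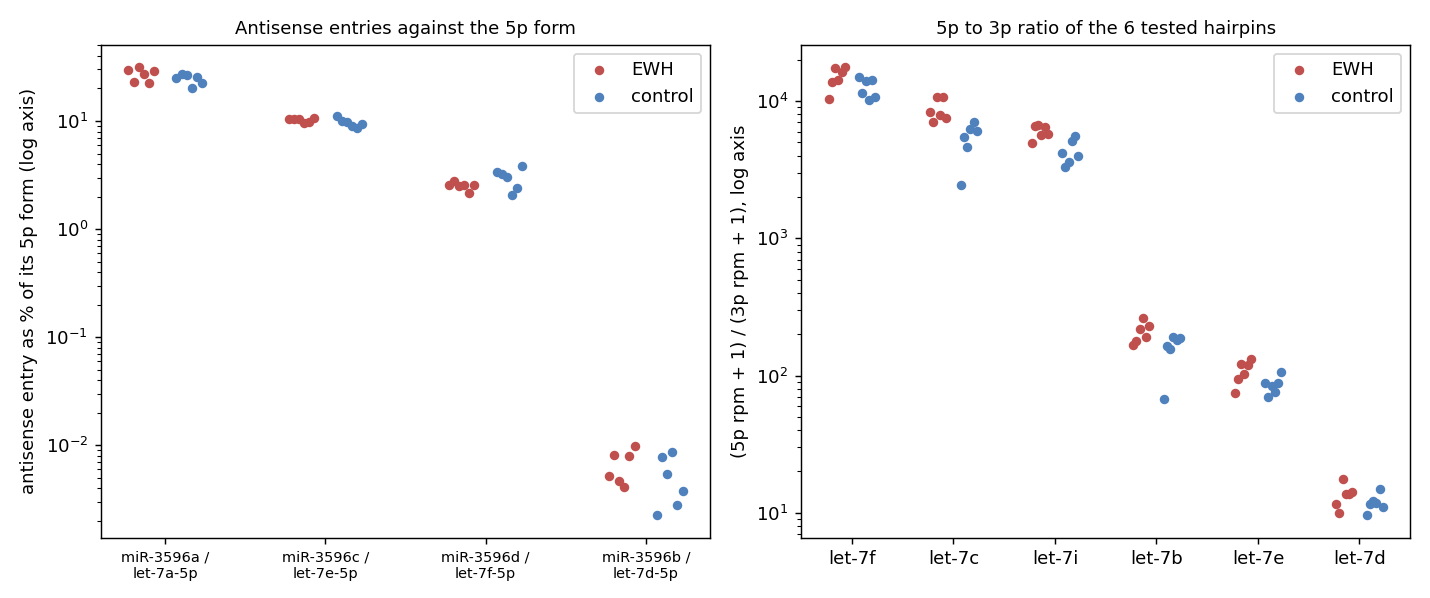
Left, each antisense entry as percent of the 5p form it mirrors; right, (5p rpm + 1)/(3p rpm + 1) of the 6 tested let-7 hairpins; points are libraries, EWH left of control in each pair, and both vertical axes are logarithmic. MiR-3596a reads 20.1% to 31.6% of let-7a-5p over all libraries, and in let-7c the lowest EWH ratio (7093) lies just above the highest control ratio (7007).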

How the data were processed

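Small RNA of 15 to 35 nt was sequenced from 12 aorta samples, per the labels' protocols. The authors deposited rpm values (named TPM, but with 1 common step per library and no length term); the build was rn6, per the submitters' processing notes. The labels give no aligner, counter, annotation, strand or multiple-mapping rule. Dividing by each library's step gave whole reads for 100% of values (tolerance 0.01 read). All 30 pairs of replicates differed beyond counting noise (chi-square over degrees of freedom at least 119).

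The 303 of 641 miRNAs reaching 1 rpm in 6 or more libraries were compared on log2(rpm + 1), which understates changes of low miRNAs, using two-sided limma-trend (limma 3.58.1, R 4.3.3), Benjamini-Hochberg adjusted over all tested at 0.05; edgeR 4.0.16 and DESeq2 1.42.0 used recovered reads. Arms were paired by name, with copies summed. Procedures were tested on simulated data with planted changes larger than those of the members, so recovery of differences this small was not tested. Alternatives changed the filter, pseudocount, scaling, variance model, replicate block, tool and libraries included. Named miRNAs were the members, cluster partners, antisense entries and 3p arms, the 5 miRNAs closest to the sum and leading markers. Members, lists and tests were chosen with earlier results of these data known. Figures used Python 3.11.15, pandas 2.3.3 and matplotlib 3.10.9.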

Additional observations from a re-analysis of the deposited data

Results flagged for a closer look

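In 2 of 42 groups of 6 values 1 library lay apart from the rest, its gap to the nearest value being a larger part of the range than Dixon's 95% critical value; chance gives about 1 in 20 groups. Control 5 read 7299 rpm in let-7d-5p, above the other controls. Control 1 had a let-7b 5p to 3p ratio of 67.2, below the other controls.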

How the results depend on the processing

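Let-7g was the lower member and the other 9 were higher in each limma fit, in edgeR and in DESeq2; the exception was let-7g in edgeR without control 1, at a log2 difference of 0.014. The count of members called was 0 in limma, 3 in edgeR and 4 in DESeq2. It was 0 under other filters, pseudocounts, scalings (median-of-ratios, TMM, listed reads, and, added after seeing the data, listed reads other than miR-143-3p), quantile normalization and variance settings, and with EWH 3 and 4 left out together. With a library left out the count of members ran from 0 to 2 in limma and from 0 to 5 in edgeR (these edgeR fits were added after seeing the data). The 2 in limma came without EWH 2, where 7.97% of the tested miRNAs were called. Under quantile normalization, with 0 members called, 2.64% were. Scaling to listed reads other than miR-143-3p moved the median of all tested miRNAs to -0.14, with the members at 0.21, and quantile normalization moved it to -0.12, with the members at 0.31. With the replicate number as a block, limma called 0 members and 7 lay under an unadjusted 0.05 (18.8% of all tested miRNAs), and edgeR called 0. Deviations of same-numbered libraries correlated at -0.50 to 0.31, and the labels do not say whether the numbers pair the samples. So few values cannot decide it. The log2 ratio of the summed level ranged from 0.24 to 0.33 with a library left out, and was 0.28 with all. For arm ratios, 1 (let-7i) was called at a pseudocount of 5 (3 of 74 over all hairpins) and 0 with the block. With a library left out from 0 to 2 were called. The 2 came without control 1 (4 of 73 over all hairpins) or control 5 (2 of 74). The cause of these changes was not tested.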
